A study of Mus musculus with 6 samples.

Results

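The 10 genes described here encode enzymes that make arginine or take it onward to ornithine, creatine, polyamines and proline: Ass1, Asl, Arg2, Agmat, Gatm, Gamt, Odc1, Oat, Prodh and Prodh2. They were chosen by gene symbol for their place in these pathways, out of the 46095 genes listed in the count table. The choice was made with earlier results of these data known, so shares of the 10 set beside all tested genes are descriptions only. All 10 were listed and passed the filter on low counts. RNA-seq counts came from primary tubular epithelial cells (PTECs) freshly isolated from kidneys of 10-week-old mice, as 3 libraries with the VHL-KO label (replicates 1, 2 and 4) and 3 with the VHL-KO;SETD2-KO label (replicates 2, 3 and 4). Mice of both genotypes carried floxed VHL alleles and the Ksp-Cre (Cdh16-cre) transgene, which expresses Cre recombinase in kidney tubules. The second genotype carried floxed Setd2 alleles as well, so that Setd2, a histone methyltransferase, was the gene that distinguished it. Both groups were therefore meant to lack VHL, and no library of wild-type cells was analysed here. Cre acts only in cells that express the transgene, and the preparation can hold other kidney cells.

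The proximal tubule of the kidney is a main site of arginine synthesis in mammals: argininosuccinate synthase and argininosuccinate lyase convert citrulline taken from the blood into arginine. Arginine is split by arginase into urea and ornithine, and its amidino group is passed to glycine in the first step of creatine synthesis. Ornithine is either decarboxylated to putrescine, the entry to the polyamines, or transaminated toward proline and glutamate, while proline and hydroxyproline are oxidised in mitochondria.

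The 4 promoter windows below belong to the 3 genes that edgeR called lower with the VHL-KO;SETD2-KO label on all 6 libraries, and to Gatm. Gatm is the partner of Gamt in creatine synthesis. Which genes were called depended on the libraries used, as given below. Each is 150 bases long, starts 250 bases before the RefSeq start and ends before the first base of the annotated gene, and each is written along the gene's own strand from RefSeq's sequence for GRCm38.p6. Odc1 lies on chromosome 12 (window chr12:17544623-17544772, plus strand), Ass1 on chromosome 2 (chr2:31470020-31470169, plus strand), Gamt on chromosome 10 (chr10:80261113-80261262, minus strand) and Gatm on chromosome 2 (chr2:122611378-122611527, minus strand). Capitals mark GCGTG on either strand (CACGC when read on the strand shown).
Odc1: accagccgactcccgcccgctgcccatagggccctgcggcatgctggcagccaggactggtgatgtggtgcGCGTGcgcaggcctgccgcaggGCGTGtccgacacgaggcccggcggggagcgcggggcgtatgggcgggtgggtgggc
Ass1: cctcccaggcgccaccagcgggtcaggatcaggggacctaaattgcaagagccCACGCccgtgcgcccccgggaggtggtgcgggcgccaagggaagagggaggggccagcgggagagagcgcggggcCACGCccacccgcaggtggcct
Gamt: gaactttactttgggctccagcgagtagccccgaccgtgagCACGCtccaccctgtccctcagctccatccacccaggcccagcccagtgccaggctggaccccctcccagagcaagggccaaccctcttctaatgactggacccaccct
Gatm: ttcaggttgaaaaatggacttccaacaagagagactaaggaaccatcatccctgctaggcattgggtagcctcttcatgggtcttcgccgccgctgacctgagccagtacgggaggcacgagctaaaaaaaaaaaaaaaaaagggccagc
VHL loss is known to stabilise hypoxia-inducible factors, which recognise a core whose first base is A or G, spelled ACGTG and, in its second form, GCGTG. The latter occurred 2 times in the Odc1 window, 2 times in the Ass1 window and 1 time in the Gamt window, and was in 16.5% of 32851 promoter windows of the same length. G and C made up 76% of the Odc1 window, 74% of Ass1, 64% of Gamt and 49.3% of Gatm, and GCGTG itself is mostly G and C. Both labels were meant to lack VHL, and whether the motif relates to any difference between them was not tested. No match to ACGTG (9.24% of windows), to CACGTG, which contains ACGTG (2.89%), or to AGAACA (10.2%) was present in any window of the 8 members that had a RefSeq entry. The windows of Gatm, Agmat, Oat, Prodh and Prodh2 held none of the 4 motifs on either strand, and Asl and Arg2 had no entry. A match describes the letters of the window and is not evidence of binding.

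The libraries held between 11168552 and 17883466 counts. VHL-KO-labelled replicate 4 stood apart: its Spearman correlations with the other 5 were 0.717 to 0.765 across tested genes, against 0.937 to 0.986 for the 10 pairs without it. Mitochondrial genes took 11.3% of its counts against 25.9% to 36.4% elsewhere, and its 260 Y-linked counts compared with 2071 to 3283 in the other 4 libraries that had more than 1. VHL-KO;SETD2-KO-labelled replicate 3 held 11704 counts of Xist against 0 to 4 in the others, and 1 count of 4 Y-linked genes. It was the only library with this pattern of a female, and the sample titles do not give sex. Setd2 itself had 1179, 799 and 132 counts with the VHL-KO label and 1499, 1019 and 1429 with the VHL-KO;SETD2-KO label (log2 fold change 0.52, edgeR adjusted p = 0.787). Without VHL-KO replicate 4 the log2 fold change was 0.05, so Setd2 was not lower where the label says it was deleted. These are counts over the whole gene, and the floxed exons are not given in the sources used here. For the mouse model the paper reports less SETD2 and H3K36me3 in renal tubules, by Western blot, tissue staining and RT-qPCR. Every direction below refers to the labels. Vhl lay between 12.8 and 25.8 CPM (counts relative to the library total, scaled by TMM factors) under the first label and between 11.8 and 17.8 CPM under the second.

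Proximal tubule markers were present in all 6 libraries, and none of the 10 was at 0. Their summed level was 15634 to 26436 CPM in VHL-KO-labelled libraries and 6728 to 9469 CPM in VHL-KO;SETD2-KO-labelled libraries, and 4 of the 10 (Slc34a1, Slc22a6, Hnf4a and Aqp1) were lower at the thresholds used for the genes below. Podocyte markers, from glomerular cells, summed to 1435 to 2085 CPM and 1967 to 4828 CPM, and Nphs1 and Wt1 among them were higher. Endothelial markers summed to 973 to 1506 CPM and 1167 to 3707 CPM, with 0 of 5 past the thresholds. Collecting duct markers summed to 50.9 to 425 CPM and 77.7 to 228 CPM, with 2 of 6 higher, and macrophage markers to 91.1 to 306 CPM and 64.8 to 208 CPM, with 2 of 6 lower. In bulk RNA, fewer cells of a type and less RNA per cell cannot be told apart.

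Calls were made with edgeR at the study's thresholds of a 1.5-fold change and an unadjusted p under 0.05. Of the 10 genes, 3 fell and 1 rose with the VHL-KO;SETD2-KO label. Odc1, Ass1 and Gamt were lower and Arg2 was higher. Over all 14611 tested genes, the same thresholds called 4.68% lower and 2.66% higher. Without both VHL-KO replicate 4 and VHL-KO;SETD2-KO replicate 3, 2 of the 10 were lower (Agmat and Odc1) and 0 higher, where 10.4% of tested genes were lower and 13.4% higher. In that setting Ass1, Asl, Gamt, Agmat and Odc1 were without overlap and lower (32.4% of tested genes) and Arg2 and Oat without overlap and higher (32.7%). None of the 10 passed after Benjamini-Hochberg adjustment over all tested genes with edgeR, where adjusted p ranged from 0.625 to 0.836 and 0.00684% of tested genes passed. DESeq2 gave an adjusted p for 5 of the 10, of which Odc1 passed. Without adjustment DESeq2, the package named in the study's methods, called 4 of the 10 lower, with Asl added, and 1 higher. It called 1133 lower and 418 higher of the 14611 tested genes. With limma-voom and sample quality weights Odc1 (adjusted p = 0.00676) and Agmat (adjusted p = 0.0414) passed, where 8.25% of tested genes were called lower. With edgeR on all 6 libraries the median log2 fold change of the 10 was -1.12, against 0.0094 over all tested genes. Of the 10 values, 7 were below 0 and 3 above. Without VHL-KO replicate 4 the median of the 10 was -0.28, against 0.035 over all tested genes. Without both that library and VHL-KO;SETD2-KO replicate 3 it was -0.49, against 0.0081. With all 6 libraries there was no overlap between the labels for the 3 lower genes and 1 higher gene called by edgeR. This held for 11% of tested genes in the lower direction and 9.62% in the higher.

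**Figure D1:**
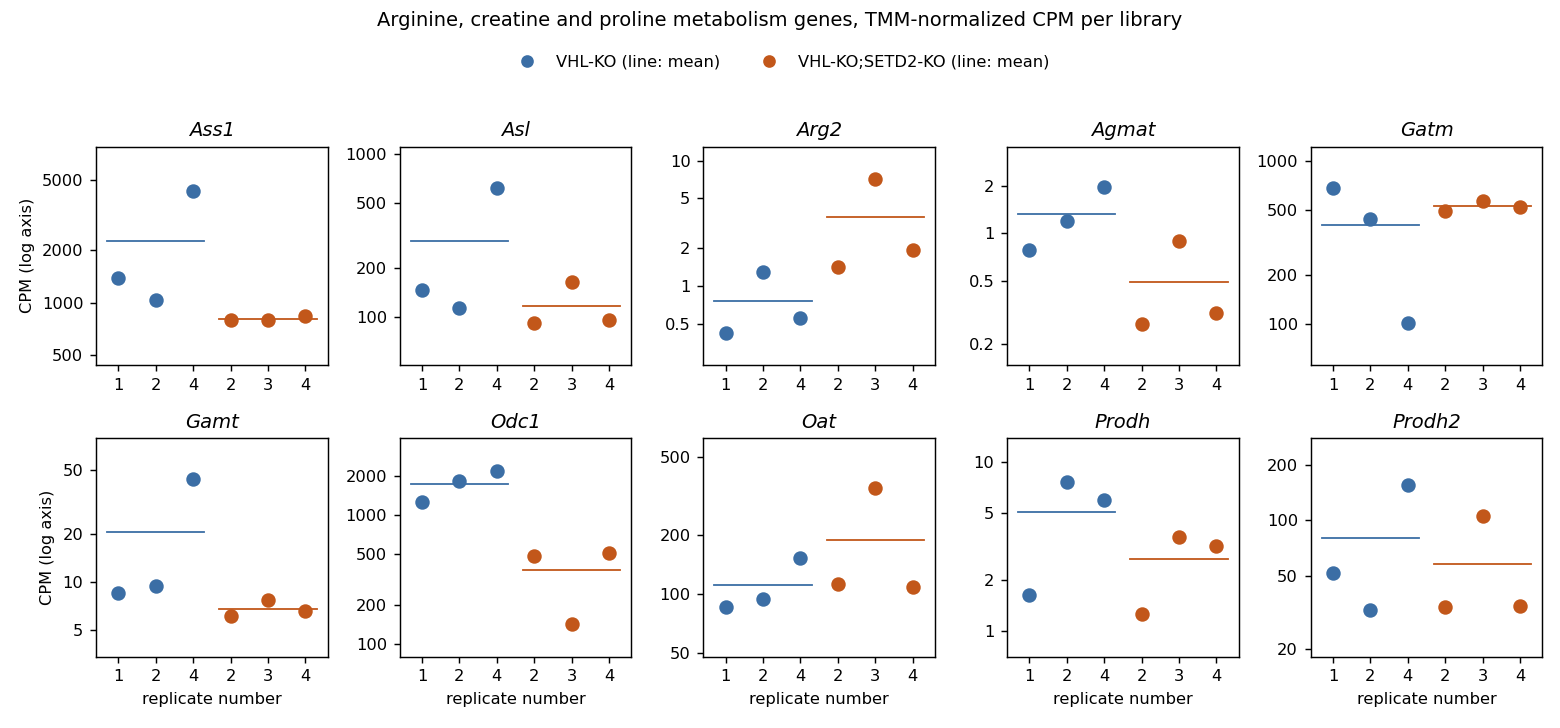
TMM-normalized CPM of each of the 10 genes (log axis, a separate scale for each gene) against replicate number, with a point for each library and a line at the mean of each label. All 3 Odc1 points labelled VHL-KO;SETD2-KO, at 143 to 507 CPM, lie below the 3 labelled VHL-KO, at 1240 to 2155 CPM. For Odc1, Ass1, Asl, Gamt, Agmat and Prodh2 the highest point is VHL-KO-labelled replicate 4.

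Ass1 (chr2:31470207-31520672, plus strand, GRCm38 as for all gene spans) encodes argininosuccinate synthase, the first of the enzymes that rebuild arginine from citrulline. Its level was 1379, 1029 and 4342 CPM in VHL-KO-labelled replicates 1, 2 and 4. It was 791, 792 and 832 CPM in VHL-KO;SETD2-KO-labelled replicates 2, 3 and 4. The second group was narrow (805 ± 23.3 CPM, SD, n = 3) and lay wholly below the first, whose spread was set by replicate 4, the library with the low mitochondrial share. The fold change was 2.80-fold lower (log2 -1.48 ± 0.62, SE, edgeR unadjusted p = 0.0439, adjusted p = 0.625). Without VHL-KO replicate 4 the difference was 1.5-fold (log2 -0.59, unadjusted p = 0.0305), and without both that library and VHL-KO;SETD2-KO replicate 3 it was 1.48-fold, under the fold threshold (log2 -0.57, unadjusted p = 0.0133, adjusted p = 0.0595). Leaving out any VHL-KO;SETD2-KO-labelled library kept the log2 fold change between -1.47 and -1.44 with unadjusted p from 0.0986 to 0.115, so that the call was lost.

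Asl (chr5:130011258-130029247, minus strand) encodes argininosuccinate lyase, which releases arginine in the next step. Its level was 146, 112 and 618 CPM with the VHL-KO label and 90.9, 164 and 94.8 CPM with the VHL-KO;SETD2-KO label. The groups overlapped, because VHL-KO;SETD2-KO-labelled replicate 3 exceeded VHL-KO replicates 1 and 2. The log2 fold change of -1.33 ± 0.70 (SE) did not pass (edgeR unadjusted p = 0.0953, adjusted p = 0.625). It was -0.16 without VHL-KO replicate 4, and -1.69 without VHL-KO replicate 2, where it passed the unadjusted thresholds (unadjusted p = 0.0405). With VHL-KO replicate 4 and VHL-KO;SETD2-KO replicate 3 both left out it was -0.48 with an unadjusted p of 0.0157, a difference under 1.5-fold. Ass1 and Asl were both without overlap and lower in the remaining libraries, where 32.4% of tested genes were. The DESeq2 Wald test on all 6 libraries did call Asl lower at the unadjusted thresholds (log2 -1.37, unadjusted p = 0.0412, adjusted p = 0.191).

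Arg2 (chr12:79130777-79156301, plus strand), the mitochondrial arginase that splits arginine into urea and ornithine, was the gene of the 10 that was higher. Its counts were few, with 7, 14 and 6 for the VHL-KO label and 27, 128 and 31 for the VHL-KO;SETD2-KO label. These correspond to 0.424, 1.29 and 0.560 CPM against 1.43, 7.20 and 1.94 CPM. The groups did not overlap, but the closest libraries, at 1.29 and 1.43 CPM, were nearly level, and replicate 3 of the second label held most of the signal. The rise was 4.67-fold (log2 2.22 ± 0.81, SE, edgeR unadjusted p = 0.0244, adjusted p = 0.625). The call was lost without VHL-KO;SETD2-KO replicate 3 (log2 1.17, unadjusted p = 0.136), without VHL-KO replicate 1 (1.92, unadjusted p = 0.0763) and without VHL-KO replicate 4 (2.08, unadjusted p = 0.0683), and the fold change was 7.18-fold without VHL-KO replicate 2. Arg2 overlaps the antisense gene Gm48780 and Vti1b on the opposite strand, and whether counting used strand is not given in the sources used here, so reads of these genes cannot be told apart. Arg1, the cytosolic arginase of the liver, had 0 to 8 counts per library and was not tested.

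Agmat (chr4:141746672-141759263, plus strand), named for agmatine ureohydrolase, which converts agmatine into putrescine, had few counts. Its counts were 13, 13 and 21 with the VHL-KO label and 5, 16 and 5 with the VHL-KO;SETD2-KO label. These were 0.787, 1.20 and 1.96 CPM against 0.265, 0.899 and 0.313 CPM, so that only VHL-KO;SETD2-KO-labelled replicate 3 reached into the range of the first group. The log2 fold change was -1.39 ± 0.69 (SE, edgeR unadjusted p = 0.0766). Without that library it was -2.13 and passed the unadjusted thresholds (unadjusted p = 0.0231, adjusted p = 0.753).

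Gatm and Gamt encode the 2 steps of creatine synthesis, and only Gamt was called. Gatm (chr2:122594467-122611303, minus strand), glycine amidinotransferase, makes guanidinoacetate from arginine and glycine. Its level was 678, 436 and 100.5 CPM with the VHL-KO label against 493, 567 and 522 CPM with the VHL-KO;SETD2-KO label. The second group was again tight (527 ± 37.5 CPM, SD, n = 3) and lay inside the range of the first, in which replicate 4 was the lowest. The log2 fold change of 0.38 ± 0.65 (SE, edgeR unadjusted p = 0.573, adjusted p = 0.836) changed sign to -0.08 without VHL-KO replicate 4.

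Gamt (chr10:80258151-80261012, minus strand), guanidinoacetate methyltransferase, completes creatine. It was present at 8.53, 9.42 and 43.6 CPM with the VHL-KO label and at 6.15, 7.70 and 6.57 CPM with the VHL-KO;SETD2-KO label. The groups did not overlap, although the lowest library of the first group and the highest of the second, at 8.53 and 7.70 CPM, were close. The fall was 3.01-fold (log2 -1.59 ± 0.67, SE, edgeR unadjusted p = 0.0452, adjusted p = 0.625), and was 1.32-fold without VHL-KO replicate 4, the same library (log2 -0.40, unadjusted p = 0.104). The call was also lost without each VHL-KO;SETD2-KO-labelled library, at log2 fold changes of -1.67 to -1.49 and unadjusted p of 0.0912 to 0.116. In VHL-KO-labelled replicate 4, therefore, the 2 genes of the same short pathway stood at opposite ends, with Gatm at its lowest and Gamt at its highest of the 6.

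Odc1 (chr12:17544794-17551505, plus strand) encodes ornithine decarboxylase, the rate-limiting enzyme of polyamine synthesis, and showed the largest fall of the 10 genes. Its level was 1240, 1816 and 2155 CPM in VHL-KO-labelled replicates 1, 2 and 4. With the VHL-KO;SETD2-KO label it was 477, 143 and 507 CPM for replicates 2, 3 and 4. The lowest library of the first group, at 1240 CPM, was well above the highest of the second, at 507 CPM, and replicate 3 of the second group was lower than its partners. The fall was 4.62-fold (log2 -2.21 ± 0.60, SE, edgeR unadjusted p = 0.00593), from 1737 ± 463 to 376 ± 202 CPM (SD, n = 3 each), and the adjusted p was 0.625.

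Odc1 stayed past the unadjusted thresholds with each library left out in turn, at log2 fold changes from -2.46 to -1.81. Without VHL-KO replicate 4 it was -2.03 (unadjusted p = 0.00958), and without VHL-KO;SETD2-KO replicate 3 it was -1.81 (unadjusted p = 0.0122). With both left out it was -1.63 ± 0.20 (SE), 3.10-fold lower, with an edgeR adjusted p of 0.00609, in a setting where 7.89% of tested genes were called lower at an adjusted p under 0.05. DESeq2 on all 6 libraries gave an adjusted p of 0.0158, where 0.342% of tested genes were called lower. Over the alternatives run, the adjusted p of Odc1 lay between 0.00609 and 0.982. Kap, a kidney androgen-regulated protein chosen after its values were seen, was 18256, 16158 and 7605 CPM under the first label and 6748, 1214 and 6954 CPM under the second. For both Odc1 and Kap the lowest of the 6 libraries was VHL-KO;SETD2-KO replicate 3, the library with 11704 Xist counts. Without that library the log2 fold change of Odc1 was -1.81, against -2.21 with all 6. An effect of sex was not tested. Odc1 also holds the snoRNA gene Gm22748 within its span.

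**Figure D2:**
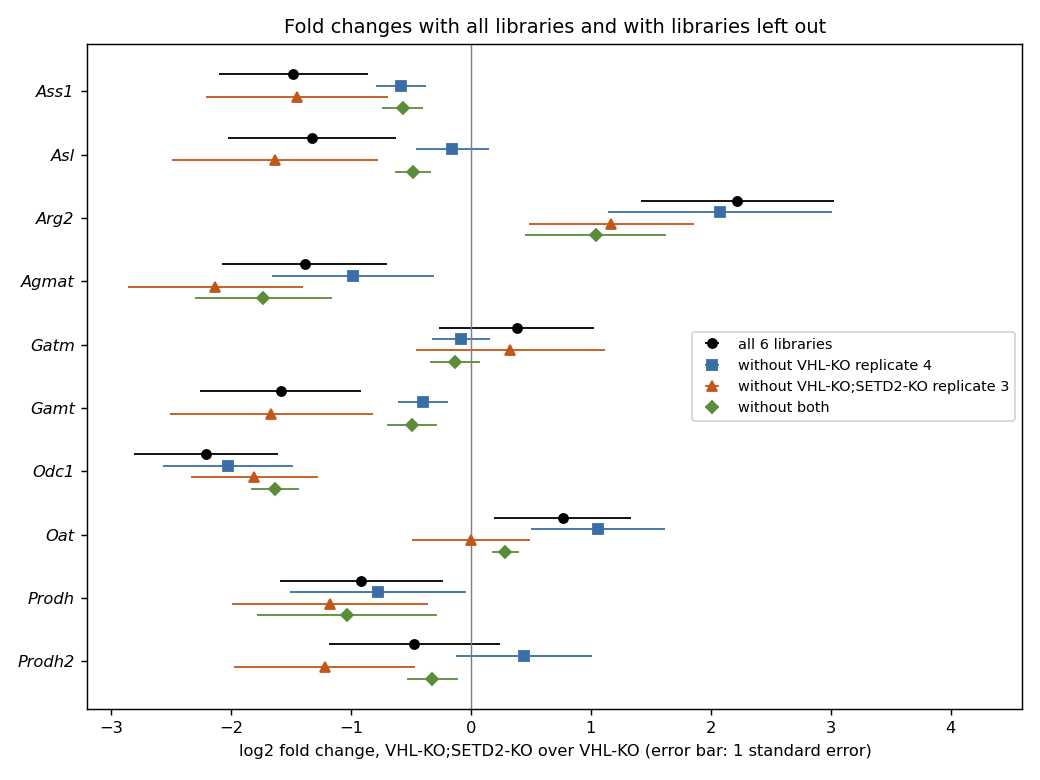
Log2 fold change of each gene, VHL-KO;SETD2-KO-labelled libraries over VHL-KO, with 1 standard error, for all 6 libraries and without VHL-KO replicate 4, without VHL-KO;SETD2-KO replicate 3, or without both. Odc1 stays between -2.21 and -1.63 in the 4 fits, whereas Ass1 moves from -1.48 to -0.59 and Gamt from -1.59 to -0.40 when VHL-KO replicate 4 is left out.

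Oat (chr7:132557478-132576398, minus strand), ornithine aminotransferase, links ornithine to proline and glutamate. It was 86.5, 95.0 and 153 CPM with the VHL-KO label and 112, 347 and 109 CPM with the VHL-KO;SETD2-KO label. Replicate 3 of the second label was the highest of the 6, in contrast to Odc1, and the other 2 libraries of that label fell inside the range of the first. The log2 fold change was 0.77 ± 0.57 (SE, edgeR unadjusted p = 0.217) and 0.0012 without VHL-KO;SETD2-KO replicate 3. Oat lies within the span of Fgfr2 on the same strand.

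Prodh (chr16:18060357-18090203, minus strand), proline dehydrogenase, starts the oxidation of proline and was low in these cells. It was 1.63, 7.66 and 5.97 CPM with the VHL-KO label and 1.27, 3.60 and 3.19 CPM with the VHL-KO;SETD2-KO label. The groups overlapped, since VHL-KO replicate 1 was below replicates 3 and 4 of the second label (log2 fold change -0.91 ± 0.68, SE, edgeR unadjusted p = 0.214). Dgcr6 overlaps Prodh on the opposite strand.

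Prodh2 (chr7:30493622-30513402, plus strand), which oxidises hydroxyproline, was 51.8, 32.5 and 155 CPM with the VHL-KO label against 33.6, 105 and 34.0 CPM with the VHL-KO;SETD2-KO label. A single library in each group, VHL-KO replicate 4 and VHL-KO;SETD2-KO replicate 3, was well above its partners. The log2 fold change of -0.47 ± 0.71 (SE, edgeR unadjusted p = 0.525) became 0.44 without VHL-KO replicate 4. Neither proline nor hydroxyproline oxidation showed a called difference at its dehydrogenase.

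The levels of the 10 genes were set side by side per kilobase of the median annotated transcript. With the VHL-KO label the medians of CPM per kilobase ran from 2741 for Odc1 and 2404 for Ass1 through 547 for Gatm, 107 for Asl, 76.4 for Oat and 67.1 for Prodh2. They ended with 9.77 for Gamt, 7.49 for Prodh, 0.853 for Agmat and 0.392 for Arg2. Neighbours in this order overlapped across libraries except between Ass1 and Gatm and between Prodh and Agmat. With the VHL-KO;SETD2-KO label Ass1 was first, with a median of 1382 CPM per kilobase, and Odc1 second with 720, and their libraries did not overlap (1379 to 1450 for Ass1 against 216 to 765 for Odc1). Gatm followed with 655, and its libraries overlapped those of Odc1. Gamt, at 9.77 and 6.82 CPM per kilobase under the 2 labels, was below Gatm in all 6 libraries. These are levels per kilobase and not differences between labels, and the longest transcript in place of the median length gave the same order with the VHL-KO label. With the VHL-KO;SETD2-KO label the longest transcript put Gatm (218 CPM per kilobase) above Odc1 (216) and Arg2 (1.36) above Prodh (0.646), so the order of these pairs depended on the length used.

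Because the proximal tubule markers were lower with the VHL-KO;SETD2-KO label, the genes were also expressed per library relative to them, as log2 CPM minus the mean log2 CPM of the 10 markers. That mean was 10.04 ± 0.16 with the VHL-KO label and 9.14 ± 0.30 with the VHL-KO;SETD2-KO label (SD, n = 3 each), a difference of -0.91 with no overlap (exact two-sided permutation p = 0.1, the smallest that 3 against 3 libraries allow). Odc1 was 0.26, 0.93 and 0.86 relative to the markers under the first label and 0.06, -2.27 and -0.15 under the second. The labels did not overlap, with a mean difference of -1.47 (exact permutation p = 0.1), although the nearest libraries, at 0.26 and 0.06, differed by little. The difference was -0.73 without VHL-KO;SETD2-KO replicate 3, whose relative level was the lowest, and -0.64 with VHL-KO replicate 4 left out as well.

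For Ass1, Asl and Gamt the relative levels differed by -0.28, -0.04 and -0.25 on the log2 scale, with overlapping libraries (exact permutation p = 0.9, 1 and 1). Without VHL-KO replicate 4 these 3 differences changed sign, to 0.25 for Ass1, 0.62 for Asl and 0.42 for Gamt. In the remaining 5 libraries Asl and Gamt were higher relative to the markers with the VHL-KO;SETD2-KO label and did not overlap. Gatm, which was not called in CPM, was -0.61, -1.13 and -3.56 relative to the markers with the VHL-KO label and 0.11, -0.29 and -0.11 with the VHL-KO;SETD2-KO label. All 3 libraries of the second label were above the first, a mean difference of 1.67 that was 0.77 without VHL-KO replicate 4. Oat was also without overlap and higher relative to the markers, by 1.49, and Arg2 by 2.72 (exact permutation p = 0.1 for each of the 3 genes). Because the marker mean itself differed by -0.91, a gene with unchanged CPM also lies higher on this scale. In CPM, Gatm and Oat overlapped between the labels. The share of all tested genes without overlap relative to the markers is not reported here. Agmat, Prodh and Prodh2 differed by -0.36, 0.15 and 0.53, and their libraries overlapped. The share of tubule cells in each preparation was not measured.

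**Figure D3:**
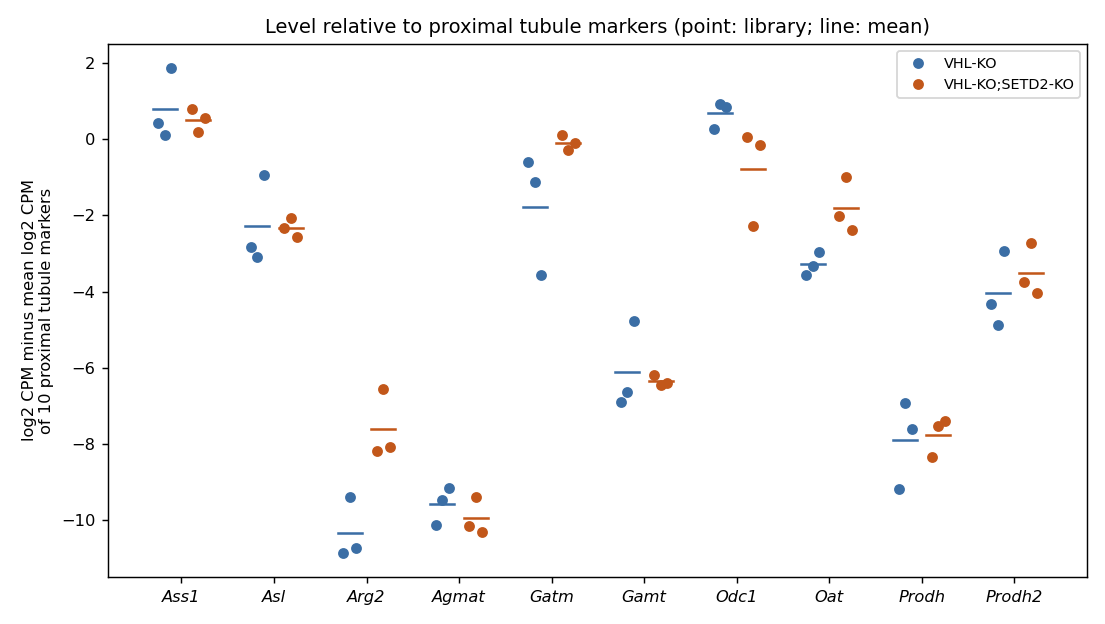
Log2 CPM of each gene minus the mean log2 CPM of 10 proximal tubule markers in the same library, with a point for each library and a line at the mean of each label. Gatm, Arg2 and Oat lie higher in all 3 VHL-KO;SETD2-KO-labelled libraries and Odc1 lies lower, while the points of Ass1, Asl, Gamt, Agmat, Prodh and Prodh2 overlap. The marker mean was itself lower with that label, so a gene with unchanged CPM also lies higher here.

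Around these 10 enzymes, a list of 51 other genes of the same pathways held 50 that were listed and 41 that were tested. Of the 41, 7 were lower and 1 was higher at the unadjusted thresholds (17.1% and 2.44%, against 4.68% and 2.66% of all tested genes). With all 6 libraries a log2 fold change below 0 was found for 34 of the 41 and for 7237 of the 14611 tested genes, with medians of -0.48 and 0.0094. Some of these signs depended on VHL-KO replicate 4. Without it Aldh18a1 went from -0.52 to 0.59 and Azin2 from -0.47 to 0.073, while the 7 genes called lower stayed below 0. The count of signs over the 41 without that library is not reported here. None of the 41 passed with adjustment over all tested genes (edgeR, lowest adjusted p 0.625). Of the 8 called genes, 5 were in the proline and hydroxyproline group, where 9 genes were tested and all 9 had log2 fold changes below 0, with a median of -1.08. The 5 called lower were 55.6% of the group, against 4.68% of all tested genes. Of the 10 proximal tubule markers, 9 were also below 0, with a median of -1.14 and 4 called lower. The pathway genes were not expressed relative to these markers. No gene was called among 5 of the creatine group or 15 of the polyamine group (edgeR). With all 6 libraries 13 of the 15 polyamine genes were below 0, Azin2 among them.

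**Figure D4:**
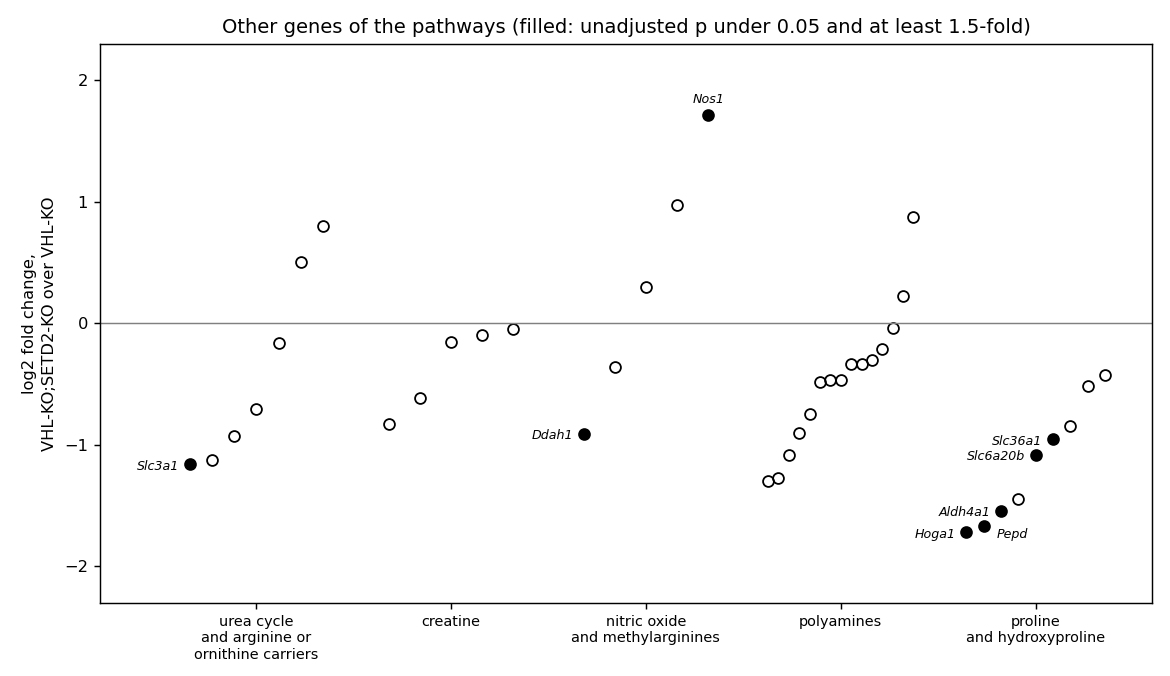
Log2 fold change with all 6 libraries, VHL-KO;SETD2-KO-labelled over VHL-KO, of the 41 tested genes in 5 pathway groups, ordered by value within each group. Filled points are the 8 genes past the unadjusted thresholds, 5 of them in the proline and hydroxyproline group, where all 9 points lie below 0.

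In the proline and hydroxyproline group, 2 of the 3 enzymes called lower act after the dehydrogenases. Aldh4a1, which oxidises pyrroline-carboxylate from both Prodh and Oat to glutamate, was 353, 339 and 1134 CPM with the VHL-KO label and 163, 271 and 192 CPM with the VHL-KO;SETD2-KO label. Hoga1, the aldolase at the end of hydroxyproline breakdown, was 140, 141 and 356 CPM against 69.0, 56.3 and 67.8 CPM. Both were without overlap and lower, by log2 -1.54 ± 0.60 for Aldh4a1 and -1.72 ± 0.50 for Hoga1 (SE, edgeR unadjusted p = 0.0315 and 0.00859). Without VHL-KO replicate 4 these were -0.73 and -1.13 and both still passed the unadjusted thresholds, and Aldh4a1 lost the call without VHL-KO;SETD2-KO replicate 2 (unadjusted p = 0.111) or replicate 4 (unadjusted p = 0.0982).

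Pepd, the prolidase that frees proline from dipeptides, was 219, 186 and 720 CPM with the VHL-KO label and 112, 115 and 128 CPM under the other, a log2 fold change of -1.66 ± 0.60 (SE, edgeR unadjusted p = 0.0232). Without VHL-KO replicate 4 it was -0.78 (unadjusted p = 0.00226), and without each VHL-KO;SETD2-KO-labelled library the unadjusted p was 0.0631 to 0.0751. The proline carrier Slc6a20b was 193 to 265 CPM and 82.2 to 126 CPM (log2 -1.08 ± 0.40), and the proton-coupled amino acid carrier Slc36a1 was 109 to 135 CPM and 56.3 to 72.3 CPM (log2 -0.95 ± 0.37). Neither carrier overlapped between the labels (edgeR unadjusted p = 0.0266 and 0.0318), and both stayed past the unadjusted thresholds without VHL-KO replicate 4. Both lost the unadjusted call when either VHL-KO replicate 1 or 2, or VHL-KO;SETD2-KO replicate 2 or 4, was left out, with log2 fold changes from -1.15 to -0.92 for Slc6a20b and from -1.04 to -0.86 for Slc36a1, and Slc36a1 also without VHL-KO;SETD2-KO replicate 3 (-0.94).

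Of the enzymes that build proline, Aldh18a1 was not called. Aldh18a1, which makes pyrroline-carboxylate from glutamate, was 2.72, 2.77 and 12.4 CPM with the VHL-KO label against 3.71, 4.16 and 4.57 CPM with the VHL-KO;SETD2-KO label. Replicates 1 and 2 of the first label lay below every library of the second while replicate 4 lay above, and the log2 fold change of -0.52 became 0.59 without VHL-KO replicate 4. Pycr1, a pyrroline-carboxylate reductase, had 1 to 7 counts per library and was not tested.

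Among arginine carriers and nitric oxide genes, Slc3a1, the heavy subunit of the cystine and dibasic amino acid carrier, was 500.0, 528 and 631 CPM with the VHL-KO label and 204, 299 and 240.4 CPM with the VHL-KO;SETD2-KO label. It was lower without overlap (log2 -1.16 ± 0.41, SE, edgeR unadjusted p = 0.0210), and lost the unadjusted call without VHL-KO replicate 2 (unadjusted p = 0.0524), VHL-KO;SETD2-KO replicate 2 (unadjusted p = 0.110) or VHL-KO;SETD2-KO replicate 4 (unadjusted p = 0.0956). Ddah1, which breaks down methylarginine inhibitors of nitric oxide synthase, was 270 to 311 CPM and 142 to 161 CPM (log2 -0.91 ± 0.38, SE, edgeR unadjusted p = 0.0416). Both groups were narrow, yet the unadjusted p was between 0.0939 and 0.156 when any library other than VHL-KO replicate 4 was left out, and the call was lost. Nos1, the neuronal nitric oxide synthase, had 4 to 7 counts under the first label and 23 to 28 under the second (log2 1.71 ± 0.58, SE, edgeR unadjusted p = 0.0173), and the unadjusted p was 0.0558 to 0.0803 without VHL-KO replicate 1 or 2 or VHL-KO;SETD2-KO replicate 2 or 4, where the call was lost. Otc, the urea cycle enzyme that makes citrulline from ornithine, had 0 counts in all 6 libraries.

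The partners of Odc1 and of the creatine genes did not pass. Azin1 and Azin2 encode antizyme inhibitors, which keep ornithine decarboxylase from being degraded. Azin1 was 132, 134 and 20.3 CPM with the VHL-KO label and 117, 90.6 and 128 CPM with the VHL-KO;SETD2-KO label, with VHL-KO replicate 4 far below the rest (log2 fold change 0.22, and -0.26 without it). Azin2 lay between 0.564 and 1.96 CPM in the 6 libraries (log2 fold change -0.47). Slc6a8, the creatine carrier, was 150.2, 146 and 400.4 CPM against 98.1, 177 and 116 CPM, with overlapping libraries (log2 fold change -0.83 ± 0.54, SE, edgeR unadjusted p = 0.161).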

How the data were processed

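PTEC RNA was extracted, made into directional libraries and sequenced as paired ends by the authors. HISAT2 2.0.4 and GRCm38 are named in the submitters' processing notes, while the counting program, annotation and use of strand are not given in the sources used here. The authors deposited raw counts per gene symbol for 6 libraries, and 0 columns were left unused. A floor of 3 counts is the least signal told from 0, and covers counting error only. From the deposited counts, TMM factors and the quasi-likelihood test of edgeR 4.0.16 (R 4.3.3) were computed on the 14611 genes that passed filterByExpr, with the label as the only factor. A call needed a 1.5-fold change and an unadjusted p under 0.05. The prior count for log2 CPM was 2, and levels between genes were compared per kilobase of the median GENCODE transcript. The text names all 10 genes, the pathway genes past the thresholds and close relatives of the 10 (except where not reported here), with Setd2, Vhl and Xist as checks. These genes and lists were chosen with earlier results of these data known. Alternatives were RLE size factors, DESeq2 1.42.0, limma 3.58.1 (voom, with and without quality weights), other filters, library sizes without the 13 mitochondrial or the top 20 genes, a replicate block, and libraries left out. The study gives 3 mice per genotype. The fits were tested on simulated data.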

Additional observations from a re-analysis of the deposited data

How the results depend on the processing

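Of the 10 genes, Odc1 alone stayed past the unadjusted thresholds in every alternative except the replicate block (log2 fold change -2.01, unadjusted p = 0.103). The median log2 fold change of all tested genes was 0.0094, and 0.13 with limma-voom and 0.11 with the block. With adjusted p, 0 of 14611 genes were higher and 1 lower with edgeR, and 0 of the 10 genes and 0 of the pathway genes passed in either direction. DESeq2 called 1133 genes and 4 of the 10 lower, and limma-voom 1 of the 10 lower. Quality weights gave 2125 higher and 1527 lower genes, 6 higher pathway genes, and reversed Gatm (-0.051), Azin1 (-0.12) and Aldh18a1 (0.58). With no filter 634 genes were higher. At least 10 counts in every library removed Arg2 and Nos1, leaving 0 higher among the 10 and the pathway genes and 0 of the 10 without overlap and higher. Without both VHL-KO replicate 4 and VHL-KO;SETD2-KO replicate 3, 1976 genes (13.4%) were higher and 1531 (10.4%) lower, 0 of the 10 were higher and 2 lower, 6 pathway genes were higher, 2 of the 10 were without overlap and higher and 5 lower, and Gatm (-0.14), Azin1 (-0.12) and Aldh18a1 (0.59) reversed.

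Leaving out each library in turn gave 179 to 1243 higher and 206 to 1078 lower genes among 14928 to 15164 tested. Of the 10, 0 to 1 were called higher and 1 to 4 lower, and of the pathway genes 0 to 4 higher and 1 to 8 lower. Without overlap were 1 to 2 of the 10 in the higher direction and 3 to 5 in the lower. The matching shares of all tested genes are not reported here, and fewer libraries separate more easily. With all 6 libraries 9.62% of tested genes were without overlap and higher and 11% lower. Without both VHL-KO replicate 4 and VHL-KO;SETD2-KO replicate 3 these shares were 32.7% and 32.4%. With each library left out in turn, the log2 fold changes ranged from -0.08 to 0.98 for Gatm, -1.22 to 0.44 for Prodh2 and -0.26 to 0.55 for Azin1. They ranged from -1.02 to 0.073 for Azin2 and -0.85 to 0.59 for Aldh18a1, and each of these genes reversed without VHL-KO replicate 4. Replicate numbers 2 and 4 occur under both labels, and deviations of same-numbered libraries correlated at 0.16 and -0.32. The sample titles do not say whether same-numbered libraries were paired. These 2 values, the second of which involves VHL-KO replicate 4, cannot decide it. With the replicate block 93 genes were higher and 54 lower, 0 of the 10 and 0 pathway genes were called in either direction, and Oat reversed (-0.12). The causes were not tested. Precision is limited by 3 libraries per label and, for Arg2, Agmat and Nos1, by counts under 30 in most libraries.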
